A study of Mus musculus with 90 samples.

Results

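The genes described here are 32 enzymes and transporters of glycolysis, lactate handling and glycogen metabolism, taken by symbol from a set named for isozyme use. All 32 were present among the 55011 gene symbols of the count table. They form 16 families, and 12 of these families hold more than a single isozyme. The rule uses gene names.

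Glycolysis breaks glucose down to pyruvate, and lactate dehydrogenase turns pyruvate into lactate and back. Many steps are run by isozymes, enzymes that carry out the same reaction but are encoded by separate genes and used by different tissues. Skeletal muscle stores glycogen for its own contraction, liver stores it to release glucose into blood, and heart takes up lactate as fuel. Stromal cells of muscle, the fibroblast-like cells between the fibres, are not known for large glycogen stores.

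The series held 90 mouse RNA-seq libraries in 29 groups and followed the mechanically gated channel Piezo1 in muscle stromal cells (MmSCs) through exercise, injury and treatment with Yoda1, a small molecule that opens Piezo1. MmSCs were sorted as PDGFRa+ Sca1+ CD31- CD45- cells from hindlimb muscle, 1000 cells to a library, and the mice of the first acute exercise and the training samples were aged 8 to 10 weeks. Mutant mice carried Pdgfra-Cre and floxed Piezo1 (labelled PdgfraCre.pos_Piezo1FLOXED, called FL here, and KO for tibialis anterior). Their littermates carried Pdgfra-Cre and intact Piezo1 (PdgfraCre.pos_Piezo1WT, called Cre WT or WT here), so both genotypes held the Cre, which acts only where the Pdgfra promoter is used.

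The MmSC groups were as follows, where samples that share a naming scheme in the labels are called a cohort. WT mice with acute exercise (AEX), sampled on day 1, were set against sedentary (SED) mice, and in another cohort WT mice with exercise training (EXT) against SED mice. FL and Cre WT mice were each studied after AEX (day 1) and at rest, and on day 1 after cardiotoxin (CTX), a toxin from snake venom that kills muscle fibres. MmSCs in brief culture received 25 µM Yoda1 for 2 h, against vehicle named 0 h in the labels (both Cre WT), or for 4 h and 6 h, against unstimulated vehicle cells of a separate cohort with no genotype label. The whole tissues were tibialis anterior muscle (TA) of KO and WT mice on days 1, 3 and 7 after CTX, hearts of FL and WT mice 3 days after CTX to skeletal muscle, and uninjured hearts, livers and quadriceps of sedentary FL and WT mice. Most groups had 3 libraries, while Yoda1 at 2 h had 2, and liver and day 1 TA had 4 each.

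Total counts were 1806248 to 10258234 in the 44 MmSC libraries, 4051973 to 10226407 in the 26 muscle libraries and 27461930 to 38376123 in the 20 heart and liver libraries, so low members were measured best in heart and liver. The labels were checked against marker genes, summed as CPM (counts per library size, with TMM factors). The 8 stromal markers summed to 60390 to 128100 CPM in sedentary Cre WT MmSCs and to 2405 to 3668 CPM in WT quadriceps. The 8 fibre markers summed to 20.6 to 25.0 CPM in those MmSCs and to 240000 to 258800 CPM in quadriceps. Cardiomyocyte markers in heart reached 52030 to 54080 CPM and hepatocyte markers in liver 90860 to 108200 CPM. Counts per gene did not show the loss of floxed Piezo1. No label states that replicates came from separate animals, so the p-values speak only for the spread among these samples. In whole tissue, fewer cells of a type and less RNA per cell cannot be told apart.

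Isozyme use was read from TPM, counts divided by the exon length of the gene and scaled to the same sum in every library, so that isozymes can be compared with each other in a library. The share of an isozyme is its percentage of the TPM of its family among the 32 genes. The 4 sources were sedentary Cre WT MmSCs, uninjured WT heart, WT liver and WT quadriceps. Quadriceps and heart had the same leading isozyme except for lactate dehydrogenase, the lactate carriers and the Pfkfb enzymes, while MmSCs and liver led with others in many families.

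Glucose enters through the SLC2A transporters. Slc2a1, the widely used basal transporter, led in MmSCs with 84.5 ± 2.94% of the family (SD, n = 3). Slc2a4, the insulin-responsive transporter of muscle and fat, held 97.6 ± 0.338% in heart and 98.7 ± 0.146% in quadriceps (n = 3 each). Slc2a2, the high-capacity transporter of hepatocytes, held 91.8 ± 2.79% in liver (n = 4). MmSCs, liver and the striated muscles thus each led with another transporter, in every library.

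Hexokinases trap glucose as glucose 6-phosphate. Hk2, the insulin-regulated form of muscle, measured 307.0, 304.4 and 261.7 TPM in MmSCs, 176.5, 164.8 and 163.1 TPM in heart, and 123.3, 120.1 and 122.7 TPM in quadriceps. All these sedentary Cre WT MmSC libraries lay above all heart and quadriceps libraries per unit length, but sedentary MmSCs of the acute exercise cohort, at 6.75 to 9.77 TPM, lay below all of them. Hk2 held 93.8% of the family in MmSCs, 79.1% in heart and 96.9% in quadriceps. Hk1, the housekeeping form, held 20.2 ± 0.366% in heart, 6.08 ± 1.19% in MmSCs and 2.47 ± 0.916% in quadriceps. In liver all 3 were low, and Hk3, a form of leukocytes, had the largest share of them (61.3 ± 13.3%) at 2.79 ± 0.570 TPM.

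Phosphofructokinase is the committed step. Pfkp, the platelet-type subunit, led in MmSCs with 62.1 ± 5.14%, followed by the muscle-type Pfkm. Pfkm held 88.1 ± 0.888% in heart and 99.6 ± 0.0547% in quadriceps. Pfkl, the liver-type subunit, led in liver with 63.1 ± 2.52% and still held 10.2 ± 0.795% in heart. Of the enzymes that set the regulator fructose 2,6-bisphosphate, Pfkfb3 led in MmSCs (69.7 ± 7.86%) and quadriceps (76.4 ± 4.91%), and Pfkfb1 in heart (81.5 ± 4.55%) and liver (86.7 ± 5.26%). Aldoa, the muscle aldolase, led in all 4 sources, with 80.6 ± 3.85% in liver and over 99% elsewhere, and Aldoc held the rest.

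Phosphoglycerate mutase changed its leading form between sources. Pgam2, the muscle form, measured 2751, 2830 and 2743 TPM in heart and 11633, 10640 and 11627 TPM in quadriceps, but 0.938, 1.52 and 4.68 TPM in MmSCs. Pgam1, the form of most other tissues, measured 37.2, 34.2 and 31.3 TPM in MmSCs and 5.23, 4.04 and 4.84 TPM in quadriceps. The groups did not overlap in either gene. Pgam1 held 93.4 ± 5.64% of the family in MmSCs and 84.3 ± 6.21% in liver, against 0.775 ± 0.0985% in heart and 0.0415 ± 0.00348% in quadriceps. The 250 bases before the start of each gene are shown because the leading form changes between sources (RefSeq, GRCm38.p6, minus strand chr11:5803797-5804046 for Pgam2, plus strand chr19:41911621-41911870 for Pgam1). Capitals mark CAGCTG, an E-box sequence that reads alike on both strands and that myogenic factors such as MyoD can bind.
Pgam2: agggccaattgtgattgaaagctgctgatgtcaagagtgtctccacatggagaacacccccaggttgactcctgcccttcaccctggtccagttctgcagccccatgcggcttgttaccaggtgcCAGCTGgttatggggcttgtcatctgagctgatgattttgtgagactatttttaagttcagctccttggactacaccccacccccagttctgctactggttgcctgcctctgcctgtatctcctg
Pgam1: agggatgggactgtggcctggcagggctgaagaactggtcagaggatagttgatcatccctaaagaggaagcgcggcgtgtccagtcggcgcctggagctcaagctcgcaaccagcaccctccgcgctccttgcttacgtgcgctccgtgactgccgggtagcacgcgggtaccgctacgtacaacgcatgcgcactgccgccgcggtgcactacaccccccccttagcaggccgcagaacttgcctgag
Pgam2 held 1 such match, 125 to 120 bases before the RefSeq start, and Pgam1 held 0. For both genes the bases after that start were not found in a GENCODE M21 transcript. GENCODE M21 begins Pgam2 at 5803733 and Pgam1 at 41911923, so distances hold for the RefSeq start only. A match describes the letters only, and an absent match says nothing of the factor. CAGCTG was present in such a window of 3979 of 27025 mouse genes (14.7%) and of 7 of the 30 genes described here that the RefSeq table lists (23.3%). The 7 were Pgam2, Pygm, Gys1, Gpi1, Slc2a2, Pkm at 1 of its 2 starts and Pfkfb1 at 1 of its 4, while Eno3, Pfkm, Aldoa and Slc16a3, which also led in quadriceps, held 0.

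Enolase followed the same lines. Eno3, the muscle form, held 98.4 ± 0.194% in heart and 99.7 ± 0.0211% in quadriceps. Eno1, the ubiquitous form, held 73.9 ± 0.346% in MmSCs and 92.8 ± 0.855% in liver. Eno2, best known from neurons, held 13.9 ± 2.94% in MmSCs, at 8.21, 8.89 and 10.3 TPM. Pkm, the pyruvate kinase of muscle and most cells, held 99.8% or more in MmSCs, heart and quadriceps, while Pklr, the liver and red cell form, held 85.8 ± 2.63% in liver.

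Lactate dehydrogenase separated heart from the other sources. Ldhb, the heart subunit, measured 3199, 3181 and 3123 TPM in heart and 389.0, 362.4 and 321.6 TPM in quadriceps. Ldha, the muscle subunit, measured 937.7, 806.7 and 895.1 TPM in heart and 4401, 4498 and 4634 TPM in quadriceps. Ldhb therefore held 78.3 ± 1.31% in heart and 7.36 ± 0.820% in quadriceps, and Ldha held 97.0 ± 0.735% in MmSCs and 98.7 ± 0.261% in liver. Slc16a1, a carrier that moves lactate in or out, held 94.0 ± 2.26% of its pair in MmSCs, 98.7 ± 0.370% in heart and 99.4 ± 0.325% in liver. Slc16a3, the lactate exporter of glycolytic fibres, held 89.9 ± 1.15% in quadriceps.

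Glycogen phosphorylase, which releases glucose from glycogen, was mixed in MmSCs and not elsewhere among the genes described. Pygm, the muscle form (chromosome 19 from 6384399 to 6398459, mm10), measured 26.3, 27.8 and 40.2 TPM in MmSCs, 912.7, 903.9 and 870.0 TPM in heart, and 4603, 4643 and 4563 TPM in quadriceps. Pygl, the liver form (chromosome 12 from 70190811 to 70231488), measured 24.9, 24.4 and 32.2 TPM in MmSCs and 222.7, 200.9, 254.4 and 243.4 TPM in liver. Pygm held 53.4 ± 2.05% and Pygl 46.6 ± 2.05% in MmSCs, with Pygm slightly above Pygl in each sedentary Cre WT library. That order differed between cohorts. Per length, Pygl was above Pygm in every sedentary library of the acute exercise and training cohorts, and in every MmSC library after CTX. Sedentary cells of the acute exercise cohort measured 21.8, 19.2 and 23.6 CPM for Pygm (3218 exon bases). Pygl (6895 exon bases) measured 83.7, 91.4 and 113.8 CPM there. Pygm was above Pygl per length in cultured vehicle and unstimulated cells. Gys1, the synthase of muscle and most cells, held 94.2 ± 10.0% in sedentary Cre WT MmSCs, at only 2.39 to 5.70 TPM. Gys2, the liver synthase, held 98.0 ± 0.575% in liver. The windows before Pygm (plus strand, chr19:6384158-6384407) and Pygl (minus strand, chr12:70227684-70227933) are shown beside this, from the same RefSeq build and with the same marks.
Pygm: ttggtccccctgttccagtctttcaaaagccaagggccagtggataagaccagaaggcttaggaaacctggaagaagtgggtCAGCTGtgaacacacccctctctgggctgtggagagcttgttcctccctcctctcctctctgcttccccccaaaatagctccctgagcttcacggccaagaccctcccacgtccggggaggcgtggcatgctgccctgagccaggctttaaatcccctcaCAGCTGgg
Pygl: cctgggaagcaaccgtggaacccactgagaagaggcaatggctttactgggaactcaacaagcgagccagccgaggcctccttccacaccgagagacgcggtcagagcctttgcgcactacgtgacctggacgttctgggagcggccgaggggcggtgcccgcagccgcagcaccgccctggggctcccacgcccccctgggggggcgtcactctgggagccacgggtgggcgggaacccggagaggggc
Pygm held 2 matches to CAGCTG, at 168 to 163 and at 8 to 3 bases before its RefSeq start, and Pygl held 0. GENCODE M21 begins Pygm at 6384399 and Pygl, on the minus strand, at 70231488. The match at 8 to 3 and the whole window of Pygl thus lie inside the GENCODE genes. Distances hold for the RefSeq starts only, and the 2 windows do not compare sequence upstream of the GENCODE starts.

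**Figure D1:**
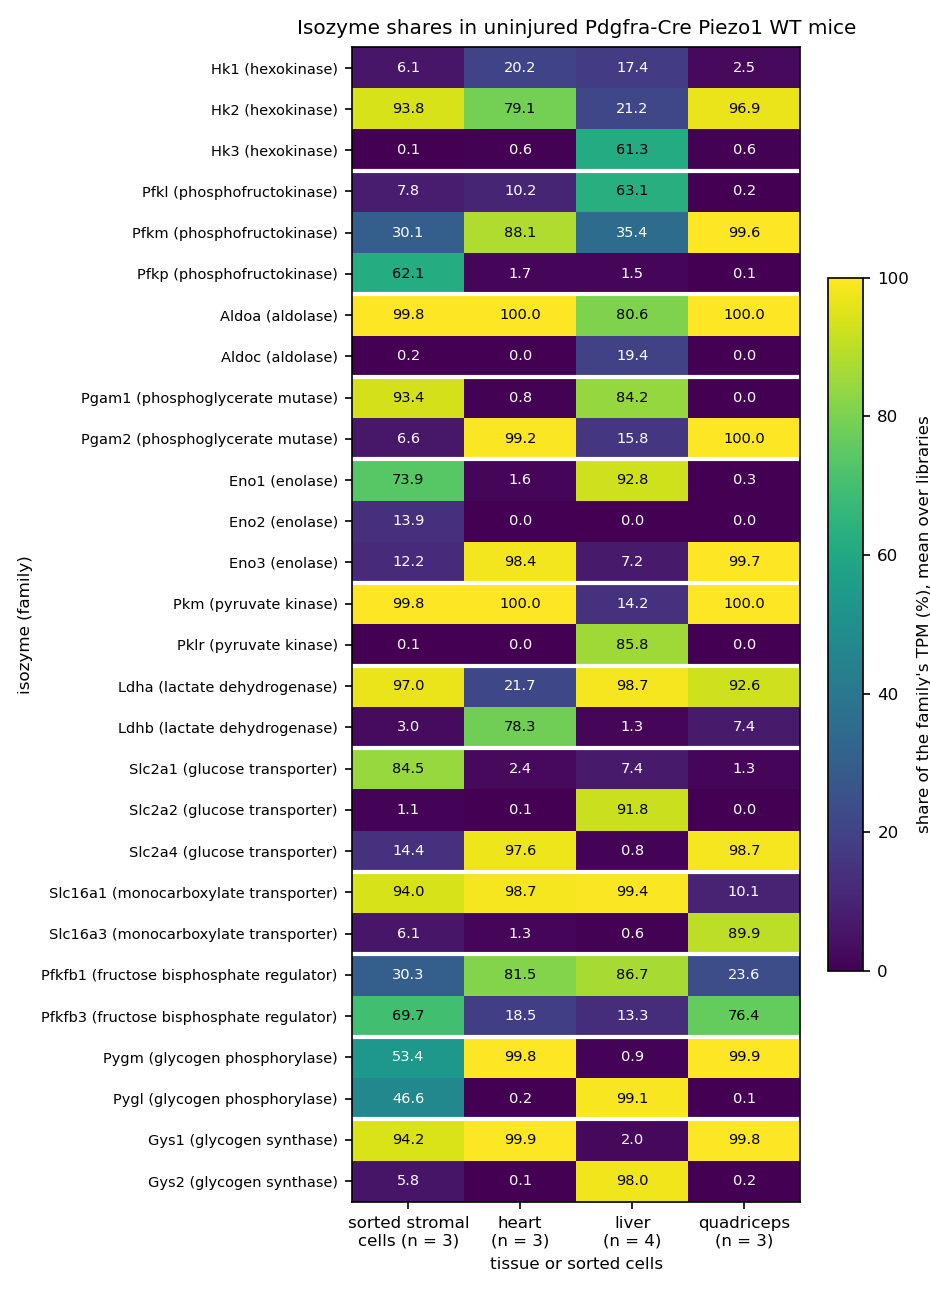
Share of each isozyme in the TPM of its family (percent, colour and number, mean over libraries) among the 32 genes, in sedentary Cre WT stromal cells, WT heart, WT liver and WT quadriceps; white lines part the families. Heart and quadriceps share Pgam2, Eno3, Pfkm, Pygm and Slc2a4 as leading forms, stromal cells are led by Pfkp, Pgam1, Eno1 and Slc2a1, and liver by Pfkl, Pgam1, Eno1, Pklr, Slc2a2, Pygl and Gys2.

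Relatives outside the 32 genes change some of these shares. With the brain-type phosphorylase Pygb counted, MmSC phosphorylase was 42.2 ± 5.28% Pygb, 30.8% Pygm and 27.0% Pygl, and heart was 46.7 ± 2.10% Pygb and 53.2 ± 2.07% Pygm. Pfkfb4 held 62.4 ± 5.24% of its extended family in MmSCs, and Pfkfb2 held 52.1 ± 3.66% in heart. The leading phosphorylase and Pfkfb enzyme of quadriceps were the same with these relatives counted. Within the 32 genes, the leading isozyme was the same in 343 of 348 pairs of a family and a group when the longest transcript gave the length, and in 340 with no length correction.

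Tests of the differences between sources used CPM per gene. Calls come from the quasi-likelihood test of edgeR with Benjamini-Hochberg adjustment over all genes of a comparison, at an adjusted p under 0.05. Genes named in the comparisons were picked by their p-value, so a lack of overlap between their groups adds no support to a call. Overlap was not counted over all genes. Sources also differ in cohort, input and depth, which cannot be told apart from the tissue. The median of all genes sat at log2 0.31 for MmSCs over quadriceps, 0.24 for heart and 0.00 for liver, and changes are to be read against these shifts.

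Against quadriceps, 28 of the 32 genes were called in MmSCs, 9 higher and 19 lower, where 53.4% of 19430 genes were called (29% higher, 24.4% lower). The median log2 of all 32 was -3.11. The lower ones were led by Pgam2 (log2 -13.10, SE 0.416), Eno3 (-11.27, SE 0.268), Pygm (-8.07, SE 0.231) and Pfkm (-7.61, SE 0.242), all with edgeR adjusted p under 0.05 and no overlap. Slc2a4 (-7.60), Gys1 (-6.97), Aldoa (-6.12) and Slc16a3 (-6.05) followed. The higher ones were Eno2 (3.43, SE 0.833), Pfkp (3.26, SE 0.313), Pygl (2.54, SE 0.195), Pgam1 (1.99, SE 0.211), Hk1 (1.73), Slc2a1 (1.30), Slc16a1 (1.08), Pklr and Slc2a2. Pklr and Slc2a2 had 6 and 15 counts over the MmSC group and 0 in quadriceps. Of the 15 counts of Slc2a2, 13 were in SED c, and without that library it was not called (edgeR adjusted p = 0.174). Neither gene was called without any 1 of the 3 quadriceps libraries (edgeR adjusted p from 0.1 to 0.111). The fibre markers had a median log2 of -14.97 in this comparison, with 8 of 8 lower. Hk2 (0.37), Eno1 (-0.23), Aldoc (0.74) and Gys2 (-1.75) were not called. Some genes depended on which sedentary MmSCs were used. Hk2 was lower than in quadriceps with those of the acute exercise cohort (log2 -4.99, edgeR adjusted p = 3.13e-11) and higher with those of the training cohort (log2 1.38, edgeR adjusted p = 8.18e-06). Slc16a1 was lower with those of the acute exercise cohort (log2 -1.32, edgeR adjusted p = 0.000136). Slc2a1 was not called with the acute exercise cohort (log2 0.02, edgeR adjusted p = 0.98), and Slc2a2 was called with neither (edgeR adjusted p = 0.22 and 0.218).

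In heart against quadriceps, 24 of the 32 genes were called, 6 higher and 18 lower, where 30.2% of genes were called (18.4% higher, 11.8% lower), and the median log2 of all 32 was -1.03. The 6 higher were Pfkl (3.37, SE 0.200), Hk1 (3.31, SE 0.419), Ldhb (2.66, SE 0.192), Slc16a1 (2.06, SE 0.164), Pfkp (1.98, SE 0.301) and Pgam1 (1.72, SE 0.207). The lower ones were led by Slc16a3 (-7.33, SE 0.368), Pfkfb3 (-5.93, SE 0.382), Gys2 (-3.16), Aldoa (-3.04), Pygm (-2.85) and Ldha (-2.85). Ldhb and Slc16a1 were thus higher in heart, while Ldha and the exporter Slc16a3 were lower.

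In liver against quadriceps, 31 of the 32 genes were called, 10 higher and 21 lower, where 56.2% of genes were called (27.8% higher, 28.4% lower), and the median log2 of all 32 was -2.25. Pklr had 11269 counts over the 4 livers and Slc2a2 21172, against 0 of 21947321 counts in quadriceps, which allows up to 0.137 CPM for a floor of 3 counts over the group. Pklr was thus at least 639.9-fold higher and Slc2a2 at least 1202-fold higher, counting error only. Gys2 (8.25, SE 0.396), Pygl (6.83, SE 0.218), Aldoc (6.23, SE 0.608), Pgam1 (3.10, SE 0.205), Eno1 (2.27, SE 0.129) and Hk3 (2.12, SE 0.464) were also higher. Pygm (-10.73, SE 0.225), Pgam2 (-10.57, SE 0.308) and Eno3 (-9.89, SE 0.218) were lowest.

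The neighbouring pathways are given by their counts, to be read against the shares of all genes called in MmSCs (29% higher, 24.4% lower) and in liver (27.8% higher, 28.4% lower). In MmSCs, 4 of 7 pentose phosphate genes were higher and 1 lower than in quadriceps, while 14 of 22 genes of glycogen handling were lower and 2 higher, and 12 of 13 genes of pyruvate entry to mitochondria were lower and 1 higher. In liver, 6 of 7 pentose phosphate genes were higher, among them the transketolase Tkt (log2 3.22). Of 8 gluconeogenesis genes 5 were higher there, led by the glucose 6-phosphatase G6pc (16.14), the liver fructose bisphosphatase Fbp1 (13.18) and Pck1 (6.18), and 2 were lower, among them the muscle form Fbp2 (-9.62).

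MmSCs at rest differed between cohorts in which hexokinase they used. Hk2 measured 7.89, 6.75 and 9.77 TPM in sedentary cells of the acute cohort, 307.0, 304.4 and 261.7 TPM in sedentary Cre WT cells, and 639.6, 592.6 and 761.9 TPM in sedentary cells of the training cohort. The 3 cohorts did not overlap. Hk1 held 78.6 ± 2.19% of the family in the sedentary cells of the acute cohort and 59.9 ± 21.9% in its AEX cells. That AEX mean rested on replicate 1, where Hk2 measured 8.76 CPM. Hk2 measured 56.4 and 49.6 CPM in AEX replicates 2 and 3 and was slightly above Hk1 per length there. Hk1 led in none of the other 13 MmSC groups, where it held 2.21% to 14.9%. These cohorts were not tested against each other, since cohort and handling cannot be told apart. Ldha led its pair in all 15 MmSC groups, from 378.7 ± 17.15 TPM in the sedentary cells of the acute cohort to 2075 ± 105.5 TPM in FL cells after CTX (n = 3 each).

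Acute exercise was studied in MmSCs 1 day later, to ask what 1 bout changes. In the first cohort, edgeR called 0 of the 25 genes that passed the filter on low counts, where 0.736% of 12777 genes were called (0.258% higher, 0.477% lower). Among the 25, 9 had an unadjusted p under 0.05, 8 of them higher, and DESeq2 called 4. Of all 12777 genes, 1901 had an unadjusted p under 0.05 and DESeq2 called 445. Ldha measured 499.7, 855.2 and 627.5 CPM after AEX and 390.6, 387.7 and 392.9 CPM in SED cells (log2 0.76, SE 0.189, edgeR adjusted p = 0.0974). Pygl measured 58.7, 54.5 and 68.5 CPM after AEX and 83.7, 91.4 and 113.8 CPM in SED cells (log2 -0.67, SE 0.155, edgeR adjusted p = 0.0825). The groups did not overlap in either gene, yet neither passed. The 25 genes had a median log2 of 0.43, against 0.00 over all genes, and 19 were positive. Without AEX replicate 1, 9 genes were called, 8 higher and 1 lower.

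In Cre WT mice, 6 of 27 genes rose with AEX and 0 fell, where 0.992% of 14821 genes were called (0.587% higher, 0.405% lower). They run from the hexose phosphates to lactate: Gpi1, Aldoa, Pgk1, Eno1, Pkm and Ldha. Eno1, which makes phosphoenolpyruvate, measured 149.5, 167.9 and 205.5 CPM after AEX and 87.1, 71.8 and 73.5 CPM in SED cells (log2 1.17, SE 0.176, edgeR adjusted p = 0.00442). Pgk1, the first enzyme of the path to make ATP, measured 70.4, 75.4 and 74.9 CPM after AEX and 38.6, 35.4 and 34.0 CPM in SED cells (log2 1.03, SE 0.188, edgeR adjusted p = 0.0128). Every AEX library was above every SED library in both.

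The other 4 rose by less. Pkm averaged 485.6 ± 36.1 CPM after AEX and 258.4 ± 34.1 CPM in SED cells (log2 0.91, edgeR adjusted p = 0.0128). Ldha measured 938.4, 1131 and 1253 CPM after AEX and 724.9, 574.5 and 642.5 CPM in SED cells (log2 0.77, SE 0.179, edgeR adjusted p = 0.0442). Gpi1, which interconverts the hexose phosphates, averaged 256.1 ± 18.6 CPM after AEX and 153.6 ± 9.88 CPM in SED cells (log2 0.74, edgeR adjusted p = 0.0332). Aldoa measured 798.6, 803.2 and 825.3 CPM after AEX and 499.9, 484.1 and 479.1 CPM in SED cells (log2 0.73, SE 0.145, edgeR adjusted p = 0.023). In none of the 6 genes did the groups overlap, which adds no support, since the 6 were picked by adjusted p. The 27 genes had a median log2 of 0.29, against -0.01 over all genes, with 18 positive. The count rested on single libraries: it was 1 without SED a, SED b, AEX b or AEX c and 3 without AEX a. DESeq2 called 10. Stromal markers summed to 46220 to 58250 CPM after AEX and to 60390 to 128100 CPM in SED cells, without overlap, and red blood cell markers to 114.5 to 155.0 CPM after AEX and to 1.05 to 810.2 CPM in SED cells, and their part in the result was not tested.

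The windows before Pgk1 (plus strand, chrX:106186850-106187099) and Ldha (plus strand, chr7:46845554-46845803, the first of 2 starts listed) are shown because hypoxia control of these genes is textbook knowledge. Capitals mark ACGTG or, on the other strand, CACGT, the core that hypoxia-inducible factors bind, with matches that overlap in CACGTG joined.
Pgk1: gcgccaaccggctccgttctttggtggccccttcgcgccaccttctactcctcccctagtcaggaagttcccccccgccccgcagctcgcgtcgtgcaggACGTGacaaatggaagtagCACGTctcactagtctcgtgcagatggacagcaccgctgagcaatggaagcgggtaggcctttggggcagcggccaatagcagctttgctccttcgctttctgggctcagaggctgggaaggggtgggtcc
Ldha: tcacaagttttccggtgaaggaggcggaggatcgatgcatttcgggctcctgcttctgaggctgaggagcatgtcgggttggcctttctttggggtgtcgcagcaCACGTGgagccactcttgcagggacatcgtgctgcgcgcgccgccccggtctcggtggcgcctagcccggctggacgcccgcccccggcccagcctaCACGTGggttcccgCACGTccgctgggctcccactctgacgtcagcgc
Pgk1 held 2 matches, at 150 to 146 and 131 to 127 bases before the start, and Ldha held 3, at 145 to 140, 48 to 43 and 34 to 30. For this start of Ldha the bases after it were not found in a GENCODE M21 transcript. GENCODE M21 begins Ldha at 46841475, so its distances hold for the RefSeq start only. The core was present in 4998 of 27025 mouse genes (18.5%) and in 14 of the 30 genes listed (46.7%). Of the 6 genes that rose, Eno1 held 0 at all 3 of its starts and Gpi1 held 0, Aldoa held 1 at 2 of its 3 starts and Pkm 1 at 1 of its 2, and the second start of Ldha held 0.

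In FL mice, edgeR called 0 of the 27 genes with AEX, where 0.162% of 14821 genes were called (0.148% higher, 0.0135% lower). Of the 27, 6 had an unadjusted p under 0.05 (5 of them higher) and DESeq2 called 0. Of all genes, 1175 had an unadjusted p under 0.05 and DESeq2 called 78. Pgk1 measured 41.1, 71.4 and 55.2 CPM after AEX and 35.003, 38.8 and 33.7 CPM in SED cells (log2 0.64, edgeR adjusted p = 0.31). Eno1 measured 97.7, 132.1 and 138.7 CPM after AEX and 82.8, 96.0 and 74.4 CPM in SED cells (log2 0.54, edgeR adjusted p = 0.369). Neither gene overlapped between the groups. The median log2 was 0.00, the same as over all genes.

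A call in Cre WT mice and none in FL mice does not show a difference, so the interaction was tested. It compares the change with AEX in FL mice with that in Cre WT mice. EdgeR called 0 of the 27 genes (0% of all genes), 8 had an unadjusted p under 0.05, all negative, and DESeq2 called 0. Of all genes, 884 had an unadjusted p under 0.05 and DESeq2 called 2. For the 6 genes above the interaction was log2 -0.67 for Gpi1, -0.65 for Aldoa, -0.63 for Eno1, -0.51 for Pkm, -0.47 for Ldha and -0.39 for Pgk1, with edgeR adjusted p from 0.737 to 0.881. The median over the 27 genes was -0.39, against 0.00 over all genes, with 23 negative. The comparisons within a genotype share these libraries.

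At rest, edgeR called 0 of 27 genes between FL and Cre WT MmSCs (0.00675% of all genes), with 3 at an unadjusted p under 0.05 and 0 by DESeq2. Over all genes the last 2 counts were 1094 and 56. Pygl measured 67.1, 86.7 and 87.6 CPM in FL cells and 49.8, 48.6 and 67.2 CPM in Cre WT cells (log2 0.55, edgeR adjusted p = 0.426), with a slight overlap. Slc2a1 averaged 38.2 ± 9.46 CPM in FL cells and 22.7 ± 10.6 CPM in Cre WT cells (log2 0.76, edgeR adjusted p = 0.599). After AEX, edgeR called 0 of 27 between the genotypes (0% of all genes), with 7 at an unadjusted p under 0.05, all lower, and 0 by DESeq2. Over all genes, 814 had an unadjusted p under 0.05 and DESeq2 called 3. Pgam1 averaged 22.3 ± 3.04 CPM in FL cells and 33.9 ± 2.38 CPM in Cre WT cells (log2 -0.61), and Eno1 122.8 ± 22.0 CPM in FL cells and 174.3 ± 28.5 CPM in Cre WT cells (log2 -0.50), both with edgeR adjusted p = 0.906. Of the 7 pathway lists around glycolysis, edgeR called 0 of 74 genes with AEX in Cre WT mice (10 with an unadjusted p under 0.05), 0 of 74 in FL mice (6) and 0 of 72 in the first cohort (7), and DESeq2 was counted for the 32 genes only.

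**Figure D2:**
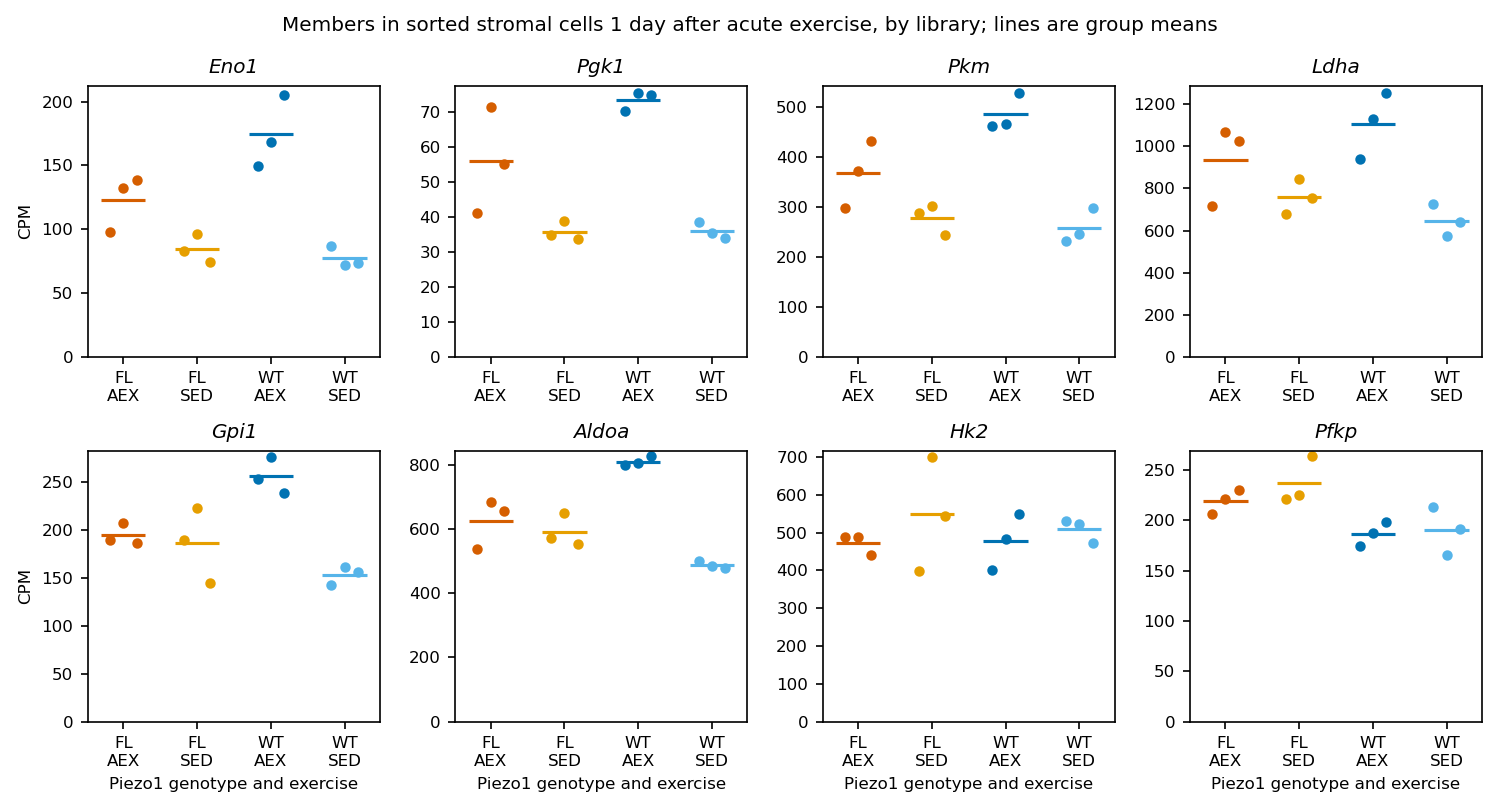
CPM of 8 genes by library in stromal cells of FL and Cre WT mice after acute exercise (AEX) and at rest (SED), with lines at the group means. Eno1, Pgk1, Pkm, Ldha, Gpi1 and Aldoa of Cre WT mice lie higher in every AEX library than in every SED library, while Hk2 and Pfkp overlap between AEX and SED in Cre WT mice.

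Training changed 1 of 26 genes, where 0.484% of 12802 genes were called (0.281% higher, 0.203% lower). Slc2a1, on chromosome 4 from 119108711 to 119137983, measured 60.3, 62.2 and 69.4 CPM in EXT cells and 46.3, 36.7 and 30.3 CPM in SED cells (log2 0.76, SE 0.154, edgeR adjusted p = 0.0442). The groups did not overlap, but no gene was called without EXT 1, EXT 2, EXT 3, SED 2 or SED 3. Smooth muscle or pericyte markers summed to 20.43 to 22.71 CPM in EXT cells and 31.81 to 43.17 CPM in SED cells, and Schwann or glial markers to 5.96 to 9.13 CPM in EXT cells and 9.49 to 11.75 CPM in SED cells, and their part in the result was not tested. The other 25 genes were not called, and the median log2 was -0.04, against -0.01 over all genes. Of 69 genes of the pathway lists, 1 was called, Txnip, an inhibitor of glucose uptake, which was lower (log2 -0.61, edgeR adjusted p = 0.0321).

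On day 1 after CTX, 2 of 25 genes were higher in FL than in Cre WT MmSCs and 0 lower, where 1.79% of 12957 genes were called (0.44% higher, 1.35% lower). Pygl measured 43.6, 62.8 and 72.9 CPM in FL cells and 34.0, 31.5 and 31.5 CPM in Cre WT cells (log2 0.89, SE 0.158, edgeR adjusted p = 0.0113). Gpi1 measured 445.7, 439.0 and 439.5 CPM in FL cells and 325.3, 341.9 and 380.3 CPM in Cre WT cells (log2 0.34, SE 0.070, edgeR adjusted p = 0.0207). Neither gene overlapped between the genotypes. The count was 0 without WT 2 or FL 2 and 1 without FL 1 or FL 3. Macrophage markers summed to 14.9 to 16.7 CPM in FL cells and 8.44 to 9.57 CPM in Cre WT cells, and stromal markers to 29490 to 34430 CPM in FL cells and 35310 to 41910 CPM in Cre WT cells, and their part in the result was not tested.

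Cells from injured and resting muscle were fitted apart, so their levels are given side by side and were not tested. Ldha averaged 1989 ± 99.8 TPM in Cre WT cells after CTX and 666.7 ± 79.5 TPM in sedentary Cre WT cells (n = 3 each). Pkm averaged 730.2 ± 33.1 TPM after CTX and 175.8 ± 18.7 TPM in sedentary cells. Pygm averaged 6.40 ± 1.10 TPM after CTX and 31.4 ± 7.603 TPM in sedentary cells.

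Yoda1 was used to ask what opening of Piezo1 does in MmSCs outside the animal. The culture time of the vehicle cells is not known here, so Yoda1 and time in culture cannot be told apart. At 2 h, 1 of 26 genes was higher than in vehicle cells and 3 were lower, where 11.2% of 12782 genes were called (5.3% higher, 5.94% lower). Gapdh, a central enzyme of the path, measured 40.7 and 34.1 CPM with Yoda1 and 165.9, 115.5 and 135.4 CPM with vehicle (log2 -1.88, SE 0.228, edgeR adjusted p = 0.0011). Gpi1 measured 125.2 and 112.8 CPM with Yoda1 and 226.1, 244.7 and 251.2 CPM with vehicle (log2 -1.01, SE 0.158, edgeR adjusted p = 0.0034). Both genes lay far below every vehicle library. Slc16a3, the exporter, measured 2.47 and 1.06 CPM with Yoda1 and 8.20, 10.6 and 14.1 CPM with vehicle (log2 -2.54, SE 0.671, edgeR adjusted p = 0.0359). Ldha went the other way, at 1124 and 881.3 CPM with Yoda1 and 554.6, 703.9 and 583.6 CPM with vehicle (log2 0.71, SE 0.159, edgeR adjusted p = 0.0185). The groups did not overlap in any of the 4. The count was 2 without vehicle 1 or vehicle 3 and 8 without Yoda1 replicate 2, where the lone Yoda1 library was assumed to vary like the vehicle group. Macrophage markers summed to 3.32 to 11.7 CPM with Yoda1 and 19.0 to 27.0 CPM with vehicle. The Yoda1 libraries held 3416913 and 1806248 counts, with 19635 and 18962 genes with a count. The vehicle libraries held 4667436 to 5621061 counts and 22782 to 23621 genes with a count, so neither measure overlapped. The part of these differences in the result was not tested.

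The later times came from another cohort, and 4 h and 6 h share their 3 unstimulated libraries. At 4 h, 2 of 25 genes were higher and 2 lower, where 5.71% of 13756 genes were called (3.58% higher, 2.12% lower). At 6 h, 3 were higher and 2 lower, where 13.2% were called (6.53% higher, 6.72% lower). Slc16a1 rose at both times: it measured 76.0, 63.9 and 82.7 CPM in unstimulated cells, 94.3, 111.9 and 103.4 CPM at 4 h (log2 0.47, edgeR adjusted p = 0.000732) and 145.4, 136.5 and 139.1 CPM at 6 h (log2 0.92, SE 0.089, edgeR adjusted p = 2.06e-09). The 3 groups did not overlap. Hk2 was called higher at both times but by little, at 313.6 ± 12.5 CPM in unstimulated cells, 363.4 ± 26.0 CPM at 4 h (log2 0.21) and 357.5 ± 28.0 CPM at 6 h (log2 0.19).

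The other genes called at 4 h fell slightly. Ldha averaged 399.8 ± 21.1 CPM at 4 h and 463.1 ± 10.8 CPM in unstimulated cells (log2 -0.21, edgeR adjusted p = 0.0141), and Gpi1 198.2 ± 3.05 CPM at 4 h and 229.6 ± 5.48 CPM in unstimulated cells (log2 -0.21, edgeR adjusted p = 0.0344). Slc2a1 measured 54.5, 40.2 and 49.4 CPM at 6 h, against 31.5, 31.97 and 35.3 CPM in unstimulated cells (log2 0.55, edgeR adjusted p = 0.00279). Pygl measured 12.8, 13.6 and 11.5 CPM at 6 h and 17.8, 19.8 and 23.6 CPM in unstimulated cells (log2 -0.70, edgeR adjusted p = 0.00951), and Pfkp 80.8, 91.5 and 91.5 CPM at 6 h and 121.7, 108.1 and 108.9 CPM in unstimulated cells (log2 -0.36, edgeR adjusted p = 0.00393). None of these groups overlapped. At 4 h the count was 1 without unstimulated 3 and 2 when any single 4 h library was left out, and at 6 h it was 3 without unstimulated 3 or Yoda1 replicate 3. Stromal markers summed to 101600 to 106600 CPM in unstimulated cells, 94220 to 101600 CPM at 4 h and 78840 to 81100 CPM at 6 h, and their part in the result was not tested.

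From 4 h to 6 h, 5 of 25 genes rose and 0 fell, where 10.9% of genes were called (5.25% higher, 5.7% lower). These were Slc16a1 (log2 0.45), Gpi1 (0.37, at 256.4 ± 16.6 CPM at 6 h and 198.2 ± 3.05 CPM at 4 h), Gapdh (0.28), Pkm (0.26) and Ldha (0.24), with edgeR adjusted p of 0.0141 or less. Gpi1 and Ldha were thus below unstimulated cells at 4 h and above their 4 h level at 6 h. The neighbouring pathways at 6 h are given against unstimulated cells, where 6.53% of all genes were called higher and 6.72% lower. There 4 of 7 pentose phosphate genes were higher, led by Pgd (0.50), Taldo1 (0.48) and G6pdx (0.34). Of 9 transport genes 3 were lower, Slc2a8 (-0.66), Txnip (-0.65) and Bsg (-0.33), the chaperone of the lactate carriers. In either direction, 4 of 8 other glycolysis genes, 5 of 19 of glycogen handling, 0 of 5 of gluconeogenesis and 0 of 13 of pyruvate entry were called. Of 12 other HIF targets, Ddit4 was higher (1.24) and Bnip3 (-0.85) and P4ha1 (-0.19) lower at 6 h. At 2 h, against vehicle, 5.3% of all genes were called higher and 5.94% lower. There Egln1 (1.93), Higd1a (1.07) and Adm (1.06) of 12 such genes were higher and Ndrg1 (-1.09) lower. In either direction, 4 of 18 genes of glycogen handling, 2 of 7 transport genes and 0 of 8 other glycolysis genes were called at 2 h. Of the genes of pyruvate entry, Pdk1, a kinase that closes that entry, was called lower at 2 h, at 0.308 and 0 CPM with Yoda1 and 3.45 to 5.88 CPM with vehicle (edgeR adjusted p = 0.0486).

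**Figure D3:**
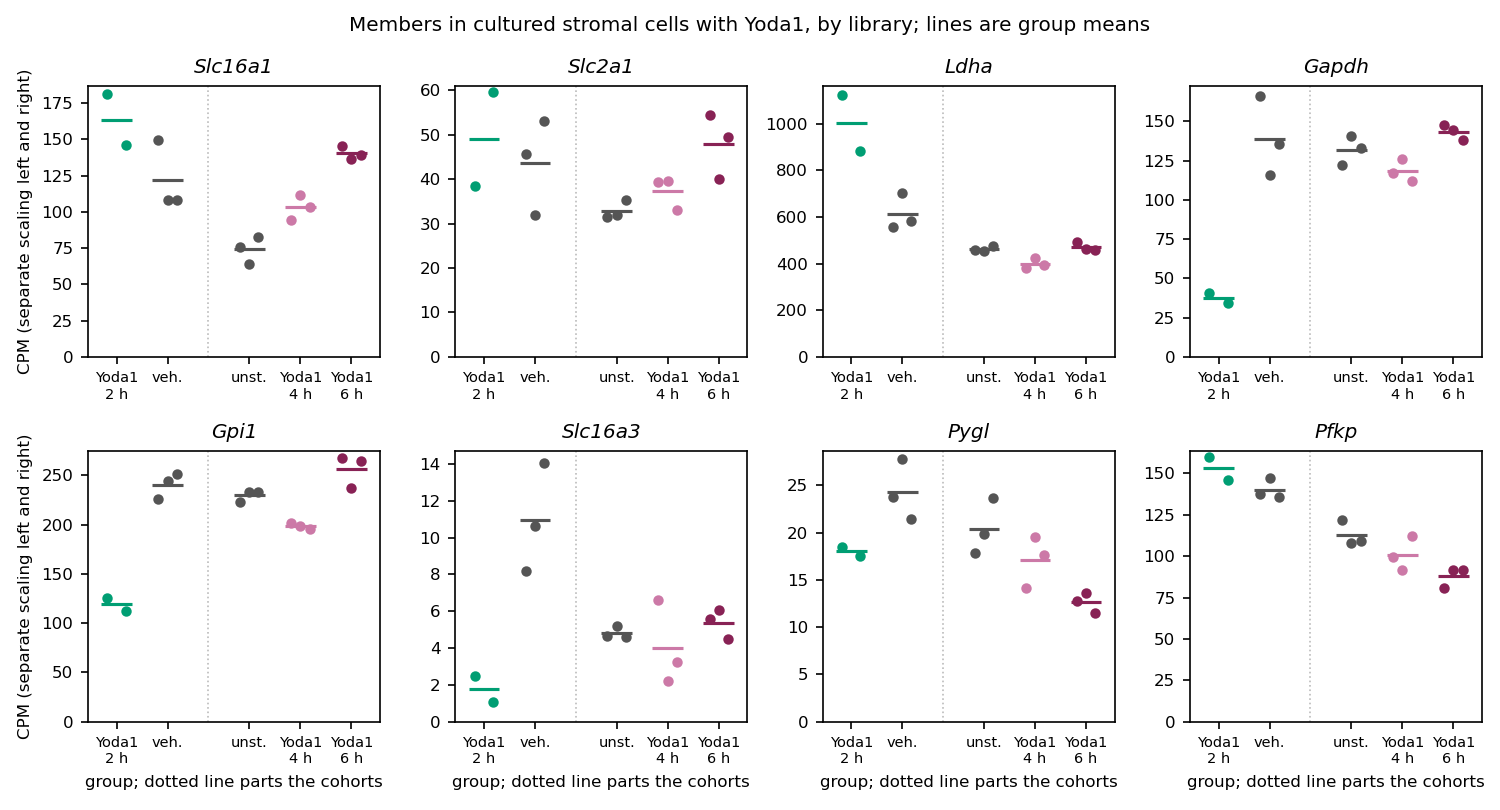
CPM of 8 genes by library in cultured stromal cells; left of the dotted line Yoda1 for 2 h and vehicle, right of it unstimulated cells and Yoda1 for 4 h and 6 h, scaled separately. Slc16a1 climbs at 4 h and 6 h, and Gapdh and Gpi1 at 2 h lie below all vehicle libraries.

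In TA muscle the genes were followed through injury and repair. The largest difference between genotypes was at day 3. There 12 of 29 genes were lower in KO than in WT muscle and 0 were higher, where 8.98% of 15499 genes were called (2.61% higher, 6.37% lower). The 29 genes had a median log2 of -0.65, against -0.02 over all genes. In none of the 12 did the genotypes overlap, which adds no support, since the 12 were picked by adjusted p.

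The muscle isozymes stood first among the 12. Pygm measured 86.4, 175.1 and 274.8 CPM in KO muscle and 810.5, 854.5 and 1448 CPM in WT muscle (log2 -2.53, SE 0.316, edgeR adjusted p = 3.78e-05). Slc2a4 measured 12.1, 14.8 and 35.1 CPM in KO muscle and 71.0, 92.5 and 119.7 CPM in WT muscle (log2 -2.17, SE 0.358, edgeR adjusted p = 0.000731). Pfkm measured 106.2, 311.7 and 343.3 CPM in KO muscle and 690.7, 755.3 and 1166 CPM in WT muscle (log2 -1.78, SE 0.314, edgeR adjusted p = 0.000866). In each the highest KO library lay below the lowest WT library, and KO replicate 1 was the lowest. Slc16a3 averaged 40.5 ± 16.2 CPM in KO muscle and 134.7 ± 33.2 CPM in WT muscle (log2 -1.72), Gys1 70.5 ± 29.2 CPM in KO and 215.7 ± 73.0 CPM in WT muscle (log2 -1.61), and Aldoa 2133 ± 700 CPM in KO and 6466 ± 1407 CPM in WT muscle (log2 -1.60), all with edgeR adjusted p under 0.05.

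Pgam2 measured 64.6, 453.4 and 283.2 CPM in KO muscle and 556.0, 753.9 and 1145 CPM in WT muscle (log2 -1.61, SE 0.463, edgeR adjusted p = 0.0354). Gapdh (log2 -1.30), Eno3 (-1.19), Tpi1, which interconverts the triose phosphates (-0.88), Hk2 (-0.88) and Gpi1 (-0.77) completed the 12, with edgeR adjusted p from 0.00131 to 0.0136. Hk3 measured 101.7, 77.9 and 94.5 CPM in KO muscle and 77.2, 68.5 and 74.1 CPM in WT muscle, higher in every KO library, and was not called. Eno1, Pgam1, Pfkp, Pfkl and Pygl, which lead their families in MmSCs or liver, were not called either. Hk2, Aldoa, Gys1 and, narrowly, Pygm also led their families in sedentary Cre WT MmSCs, and these were among the 12 lower genes. With only these 2 groups in the fit, 7 of the 12 were called, without Hk2, Gpi1, Tpi1, Pgam2 and Eno3.

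Fibre markers moved with these genes. At day 3 all 8 fibre markers were lower in KO muscle (median log2 -1.81), and their sum was 7660 to 24020 CPM in KO muscle and 54170 to 89060 CPM in WT muscle. At day 1 that sum was 102500 to 150900 CPM in KO and 110400 to 132200 CPM in WT muscle, and at day 7 it was 194800 to 226500 CPM in KO and 205900 to 225200 CPM in WT muscle. The macrophage, myoblast, stromal, neutrophil and endothelial markers were not called at day 3 (median log2 0.26, -0.08, -0.12, -0.40 and -0.23), with macrophage sums of 9734 to 11580 CPM in KO and 7177 to 9595 CPM in WT muscle. Smooth muscle or pericyte markers, a list that holds Des, summed to 1334 to 2312 CPM in KO and 3468 to 4258 CPM in WT muscle, without overlap. KO replicate 1 had 4051973 counts, the fewest of all muscle libraries. Its red blood cell markers summed to 591.8 CPM, against 47.6 and 238.8 CPM in KO replicates 2 and 3 and 67.2 to 290.6 CPM in WT muscle. The part of these differences in the result was not tested.

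Day 1 and day 7 showed no call. At day 1 edgeR called 0 of 29 genes (0.0774% of all genes), with 1 at an unadjusted p under 0.05 and 0 by DESeq2. Over all genes the last 2 counts were 893 and 49. Hk2 averaged 644.9 ± 112 CPM in KO and 456.6 ± 93.6 CPM in WT muscle (log2 0.50, edgeR adjusted p = 0.639). Of the 29 genes, 28 were positive (median log2 0.23), against a median of -0.0 over all genes. At day 7 edgeR called 0 of 29 (0% of all genes), with 2 at an unadjusted p under 0.05 and 0 by DESeq2. Over all genes the last 2 counts were 737 and 0. Pygl averaged 15.9 ± 8.99 CPM in KO and 8.79 ± 3.12 CPM in WT muscle (log2 0.86) and Hk1 46.0 ± 3.76 CPM in KO and 34.8 ± 7.79 CPM in WT muscle (log2 0.40), both with edgeR adjusted p = 1.0.

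In WT muscle, Pygm, Pfkm and Hk2 were lowest on day 3 and Hk3, Pgam1 and Pygl were highest on that day, each with both steps called. From day 1 to day 3, 6 of 29 genes rose and 11 fell, where 26.8% of genes were called (14.1% higher, 12.6% lower). Hk2 (log2 -2.15), Slc2a1 (-1.76), Pygm (-1.21), Aldoa (-1.09) and Pfkm (-0.999) fell most, and Aldoc (1.77), Hk3 (1.52), Eno1 (1.10), Pygl (0.75) and Pgam1 (0.66) rose most. The count was 9 without WT day 3 replicate 1 or 2. From day 3 to day 7, 18 genes rose and 8 fell, where 42.5% were called (20.1% higher, 22.4% lower). Eno3 (2.39), Pygm (2.25), Pgam2 (2.19), Slc2a4 (2.16) and Tpi1 (2.06) rose most, and Hk3 (-3.48), Pygl (-2.17), Pgam1 (-1.99) and Aldoc (-1.81) fell most. Pentose phosphate genes went with the second set: 6 of 7 fell from day 3 to day 7, led by G6pdx (-2.35), Tkt (-1.97) and Pgd (-1.60), while 13 of 21 genes of glycogen handling and 11 of 13 of pyruvate entry rose. Macrophage markers fell over that span (6 of 6, median log2 -2.41), and their part in the result was not tested.

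In KO muscle Pygm had the largest fall at the first step and the largest rise at the second. From day 1 to day 3, 5 of 29 genes rose and 19 fell, where 44.6% of genes were called (22% higher, 22.6% lower), with Pygm at log2 -3.97, Hk2 at -3.53, Pfkm at -3.16, Slc2a4 at -2.96 and Aldoa at -2.85. From day 3 to day 7, 18 rose and 7 fell, where 52.7% were called (25.8% higher, 27% lower), with Pygm at 4.68, Slc2a4 at 4.09, Pfkm at 3.67, Pgam2 at 3.66 and Eno3 at 3.655. Hk3 went the other way at both steps (1.71 and -3.79). The genotype comparisons at each day and the day comparisons share libraries.

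The difference between genotypes in the step from day 1 to day 3 was tested as an interaction. It was negative and called for 12 of 29 genes, where 5.85% of genes were called (1.26% positive, 4.59% negative). Pygm had log2 -2.76 (SE 0.403, edgeR adjusted p = 0.000382), Slc2a4 -2.57, Pfkm -2.16, Pgam2 -2.13, Slc16a3 -2.11, Gys1 -1.99, Aldoa -1.77 and Eno3 -1.46. Hk2, Gapdh, Tpi1 and Gpi1 lay between -1.38 and -0.81. The count was 7 without WT day 3 replicate 3. For the step from day 3 to day 7 it was positive and called for 5 genes, where 1.64% were called (1.5% positive, 0.135% negative): Pygm 2.43 (edgeR adjusted p = 0.006), Slc2a4 1.93, Slc16a3 1.66, Gys1 1.59 and Aldoa 1.45. That count was 1 without WT day 3 replicate 3, WT day 7 replicate 2 or 3, KO day 3 replicate 1 or 2, or KO day 7 replicate 1 or 2. It was 3 without WT day 3 replicate 2, and 8 without WT day 3 replicate 1, WT day 7 replicate 1 or KO day 3 replicate 3.

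**Figure D4:**
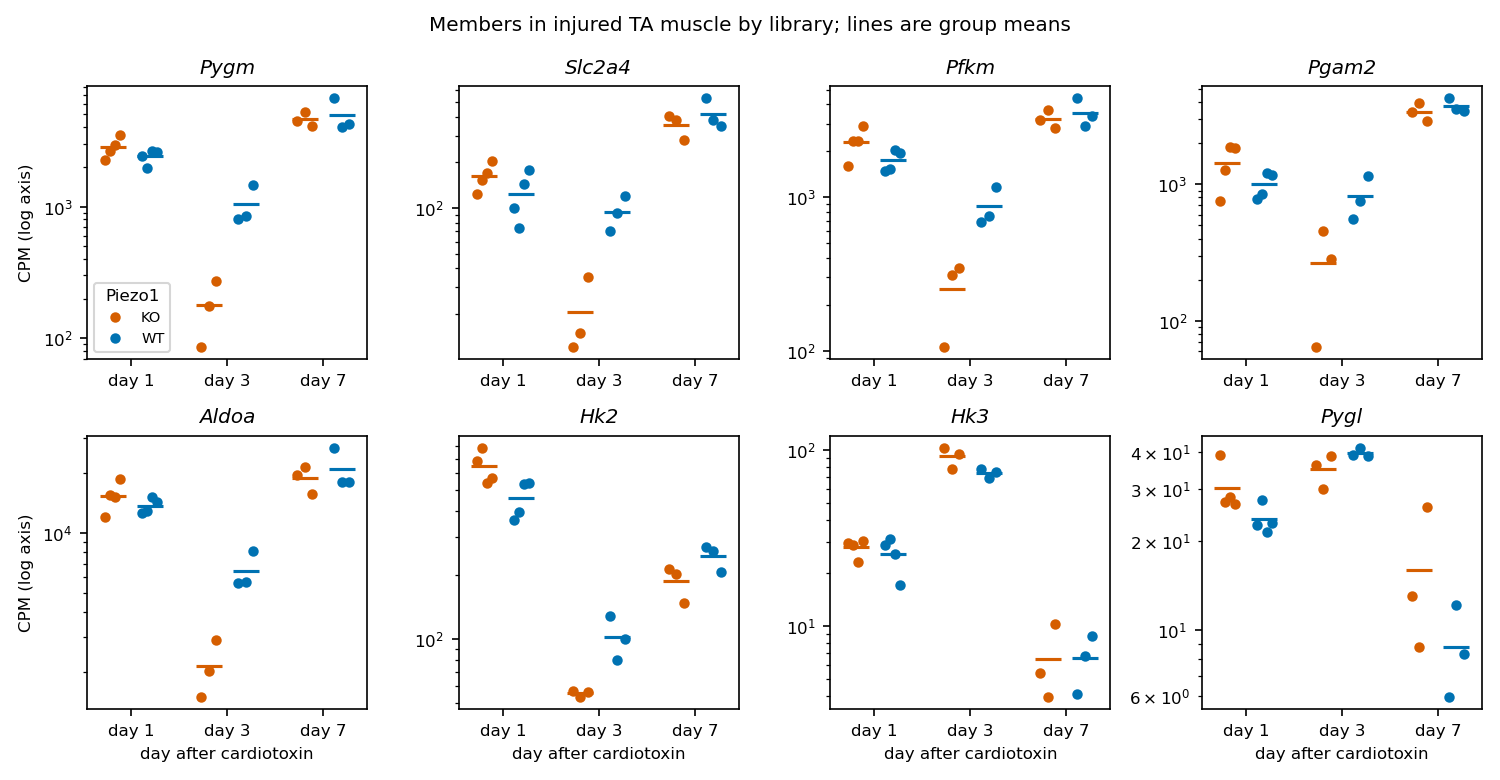
CPM (log axis) of 8 genes by library in injured TA muscle of KO and WT mice on days 1, 3 and 7 after cardiotoxin, with lines at the group means. Pygm, Slc2a4, Pfkm, Pgam2, Aldoa and Hk2 lie lower in all KO than in all WT libraries on day 3 only, while Hk3 is highest on day 3 in both genotypes.

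Isozyme shares of TPM followed the day. Hk3 held 6.27%, 62.9 ± 2.13% and 4.86% of hexokinase on days 1, 3 and 7 in KO muscle, and 7.84%, 48.1 ± 3.06% and 3.90% in WT muscle. Slc2a4 held 74.9%, 46.8 ± 15.7% and 98.2% of the glucose transporters in KO muscle and 68.6%, 85.1% and 98.0% in WT muscle. Slc16a1 held 25.1%, 60.5 ± 10.4% and 16.5% of its pair in KO muscle and 27.8%, 29.0 ± 8.98% and 15.4% in WT muscle. Pgam1 held 11.04 ± 11.2% on day 3 in KO muscle and 1.88% in WT muscle, with 23.96% in KO replicate 1, the library with the least Pgam2. The shares are descriptions and were not tested.

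Other genes of sugar metabolism fell with the muscle isozymes in KO muscle at day 3, where 6.37% of all genes were called lower and 2.61% higher. Of 21 genes of glycogen handling, 9 were lower and 1 higher, led by the phosphorylase kinase subunits Phkg1 (log2 -2.31) and Phka1 (-1.85) and the glycogen-targeting subunit Ppp1r3a (-1.62), with Gsk3b higher (0.58). Of 10 other glycolysis genes 3 were lower, Gpd1 (-2.42), Ldhd (-2.16) and Pfkfb4 (-0.92). Of 6 gluconeogenesis genes 3 were lower, Fbp2 (-1.83), Pcx (-1.40) and Slc37a4 (-1.26), and of 13 genes of pyruvate entry 2, Pdk2 (-1.57) and Pdha1 (-0.60). EdgeR called 0 of 7 pentose phosphate genes, 0 of 14 other HIF targets and 0 of 11 transport genes, with 2, 2 and 4 at an unadjusted p under 0.05.

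None of the genes was called between genotypes in uninjured tissue. In quadriceps edgeR called 0 of 26 genes (0% of 11856 genes), with 2 at an unadjusted p under 0.05 and 0 by DESeq2. Over all genes the last 2 counts were 771 and 0. Ldha averaged 5385 ± 245 CPM in FL and 5805 ± 126 CPM in WT quadriceps (log2 -0.11), and Ldhb 190.6 ± 21.5 CPM in FL and 218.4 ± 21.7 CPM in WT quadriceps (log2 -0.20), both with edgeR adjusted p = 0.758. In uninjured heart edgeR called 0 of 30 (0% of 18433), with 4 at an unadjusted p under 0.05 and 0 by DESeq2. Over all genes the last 2 counts were 778 and 10. Pfkfb1 averaged 9.97 ± 1.54 CPM in FL and 18.02 ± 2.30 CPM in WT heart (log2 -0.85), and Slc16a1 234.4 ± 36.5 CPM in FL and 195.3 ± 11.6 CPM in WT heart (log2 0.26), both with edgeR adjusted p = 1.0. In liver edgeR called 0 of 31 (0% of 14534), with 2 at an unadjusted p under 0.05 and 0 by DESeq2. Over all genes the last 2 counts were 525 and 15. Pklr measured 65.1, 68.1, 58.7 and 54.8 CPM in FL and 81.3, 85.3, 95.6 and 87.8 CPM in WT liver (log2 -0.51, edgeR adjusted p = 0.935), without overlap. Slc16a1 averaged 44.2 ± 6.48 CPM in FL and 55.2 ± 6.10 CPM in WT liver (log2 -0.32, edgeR adjusted p = 0.999).

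Hearts taken 3 days after CTX to skeletal muscle had 3 of 30 genes higher in FL than in WT mice and 0 lower, where 3.92% of 18433 genes were called (1.58% higher, 2.33% lower). Pgam2 measured 1335, 1065 and 1291 CPM in FL and 875.8, 861.2 and 896.6 CPM in WT heart (log2 0.49, edgeR adjusted p = 0.0173). Tpi1 measured 1540, 1248 and 1326 CPM in FL and 1091, 1070 and 1075 CPM in WT heart (log2 0.35, edgeR adjusted p = 0.0412). Ldhb measured 2414, 1934 and 2334 CPM in FL and 1842, 1738 and 1728 CPM in WT heart (log2 0.33, edgeR adjusted p = 0.0435). None overlapped, but 0 were called without WT 2, WT 3, WT 4 or FL 3, and 0 with only these 2 groups in the fit. Red blood cell markers summed to 374.2 to 765.9 CPM in FL and 294.0 to 428.5 CPM in WT heart, and cardiomyocyte markers to 45210 to 53520 CPM in FL and 53110 to 55300 CPM in WT heart. Endothelial markers summed to 805.7 to 940.0 CPM in FL and 976.5 to 1119 CPM in WT heart, without overlap. The day 3 libraries held 21567 to 22077 genes with a count in FL and 23931 to 24246 in WT heart, and uninjured hearts 23425 to 25046. The part of these differences in the result was not tested.

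The series description, not the sample names, calls the day 3 hearts a separate cohort, so day and cohort cannot be told apart. Against uninjured hearts, edgeR called 1 of 30 genes in FL mice (4.75% of all genes, 2.05% higher and 2.7% lower). This was Pgam2, at 1230 ± 145 CPM on day 3 and 921.1 ± 95.7 CPM uninjured (log2 0.42, edgeR adjusted p = 0.0247). The count was 0 without uninjured FL 2 or FL 3 or day 3 FL 3, 3 without day 3 FL 1 and 2 without day 3 FL 2. In WT mice edgeR called 0 of 30 (0.103% of all genes, 0.038% higher and 0.0651% lower), with 3 at an unadjusted p under 0.05 and 0 by DESeq2. Over all genes the last 2 counts were 990 and 88. Pfkfb1 averaged 10.6 ± 2.09 CPM on day 3 and 18.02 ± 2.30 CPM uninjured (log2 -0.77, edgeR adjusted p = 0.499), and Pygl 12.8 ± 10.4 CPM on day 3 and 5.12 ± 0.973 CPM uninjured (log2 1.33, edgeR adjusted p = 0.662).

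**Figure D5:**
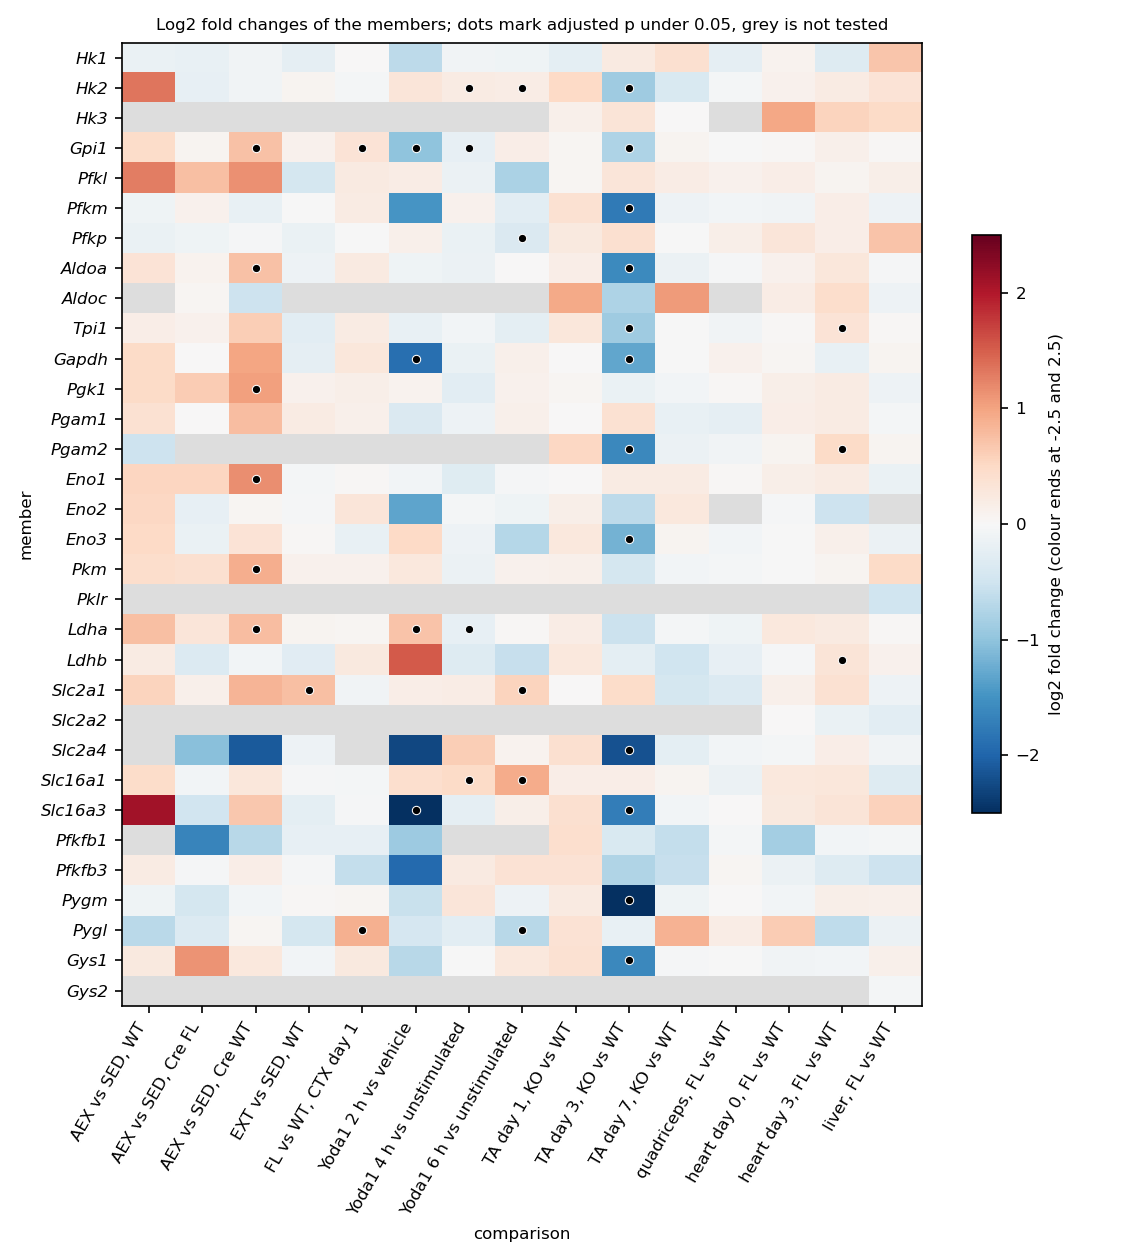
Log2 fold changes of the 32 genes (rows) in 15 comparisons (columns), with colour from lower (blue) to higher (red), dots where the edgeR adjusted p was under 0.05 and grey where the gene did not pass the filter on low counts. The column of TA day 3 holds 12 dots, all of them lower in KO muscle, and the acute exercise column of Cre WT mice holds 6, all higher after AEX.

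Genes too low to test were also accounted for. Hk3, Pklr, Slc2a2 and Gys2 passed the filter on low counts in none of the MmSC comparisons. Pgam2 passed only in the first acute exercise cohort, Aldoc only in the cohort of both genotypes, Slc2a4 failed in the first acute and the CTX cohorts, and Pfkfb1 in the first acute cohort and at 4 h and 6 h of Yoda1. In TA muscle Pklr, Slc2a2 and Gys2 did not pass, in quadriceps Hk3, Aldoc, Eno2, Pklr, Slc2a2 and Gys2, in heart Pklr and Gys2, and in liver Eno2. Counts of near-identical copies were small, at most 9.96 CPM for Ldhb-ps and 2.86 CPM or less for those of Gapdh, Eno1, Ldha, Pgam1 and Aldoa. It is not known here how the counting split reads between a gene and its copies, so those genes carry that uncertainty, also in the low TPM of Gapdh in MmSCs (77.4 ± 35.9).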

How the data were processed

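RNA-seq was measured in sorted mouse MmSCs and whole tissues. Per the labels' protocols, a library was made from 1000 sorted cells or 2 ng of RNA as in the Immunological Genome Project. STAR 2.7.3a, mm10 and featureCounts are named in the submitters' processing notes. Strandedness, multi-mapping and annotation: not given in the sources used here. All deposited values were whole-number counts per gene symbol, used as they stood. Of the 90 columns, 78 were tied to a sample by name and 12, of FL and Cre WT MmSCs at rest and after AEX, only to a group, because their titles and library names conflict; their replicates are called a, b and c.

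For 30 comparisons, 11 separate fits were made with edgeR 4.0.16 (R 4.3.3, limma 3.58.1): filterByExpr with min.count 10, then TMM factors, then glmQLFit with robust estimation, with Benjamini-Hochberg adjustment over all genes tested. SE is the log2 fold change divided by the root of F. TPM used the union of exons in GENCODE M21 (52936 symbols, 96.2%). Promoter windows are 250 bases from RefSeq. Scripts were tested on simulated data. Some family shares are not reported here. Alternatives were RLE scaling, no filter, DESeq2 1.42.0, a replicate block, only the groups compared, each library left out, other sedentary MmSCs and other lengths. The genes, the 7 pathway and 13 marker lists and the tests were chosen with earlier results of these data known. Each comparison names the called genes, at most 8 per direction by fold, or else the 2 with the smallest p; of a list, at most 3 per direction. Depth sets the precision: MmSC libraries are the shallowest, and floors of 3 counts cover counting error only, since reads carry no molecular identifiers.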

Additional observations from a re-analysis of the deposited data

Results flagged for a closer look

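Among 120 sets of a gene and a group of 4 libraries, 2 held a library far from the others. Chance alone gives about 1 in 20 such sets, so the 2 are no more than chance gives. Pygl in replicate 1 of KO muscle at day 1 was at 39.2 CPM, above 26.8 to 28.2 CPM in the other 3 libraries. Pygm in replicate 4 of FL liver was at 5.14 CPM, the highest of its group.

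The step from day 1 to day 3 in TA muscle differed between KO and WT mice, by the test of the interaction, for Hk2 (-1.38), Gpi1 (-0.81), Pfkm (-2.16), Aldoa (-1.77), Tpi1 (-1.17), Gapdh (-1.30), Pgam2 (-2.13), Eno3 (-1.46), Slc2a4 (-2.57), Slc16a3 (-2.11), Pygm (-2.76) and Gys1 (-1.99), on the log2 scale. The step from day 3 to day 7 differed for Aldoa (1.45), Slc2a4 (1.93), Slc16a3 (1.66), Pygm (2.43) and Gys1 (1.59), the reverse direction. A negative value is a more negative change in KO muscle.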

How the results depend on the processing

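RLE scaling kept the number of called genes within 1.5 times in all 30 comparisons. Without the filter on low counts, 4 genes were called in the first acute exercise cohort, 1 between genotypes after AEX, 4 between genotypes after CTX and 1 in WT heart at day 3 against uninjured heart. DESeq2 called 4 in the first acute exercise cohort, 10 in Cre WT mice with AEX and 9 in the interaction from day 3 to day 7. Over all genes it called 445, 456 and 591 there. With only the groups compared, 7 were called in TA at day 3 and 0 in both heart comparisons that had calls. Leaving out 1 library gave 0 to 9 (first AEX cohort), 0 to 1 (EXT), 1 to 4 (AEX, Cre WT), 0 to 2 (CTX), 2 to 8, 1 to 3 and 3 to 6 (Yoda1 at 2, 4 and 6 h), 9 to 12 (TA day 3, KO against WT), 9 to 17 (WT, day 1 to 3), 7 to 12 and 1 to 8 (interactions), 0 to 4 (heart day 3, FL against WT) and 0 to 3 (FL heart, day 3 against uninjured). Replicate numbers did not pair the libraries, with correlations of -0.128 to 0.204 over 64 pairs; with a replicate block, 0 genes were called with EXT, 2 with Yoda1 at 2 h and 3 in FL heart at day 3 against uninjured heart. Over 257 pairs of a gene and a comparison (the genes called there or, where none was, the 2 with the smallest p), 2757 of 3019 alternatives kept call and direction, 254 lost the call, 7 gained it and 1 reversed, Slc16a1 in MmSCs against quadriceps (-1.32 with the cells of the first acute exercise cohort). The causes were not tested. Depth limits genes with few counts in MmSCs, such as Gys2, Pklr, Slc2a2, Hk3 and Pgam2.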
